A study of Mus musculus with 27 samples.

Results

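Mouse embryonic stem (ES) cells that lacked Eed were set against ES cells that lacked Ezh2, by their microRNA counts. Every mature microRNA locus with 10 or more counts in at least 1 of the 2 genotypes' columns was taken, which gave 1091 of the 2035 loci and 975 of the 1900 mature names. The groups were Eed-/- cells and Ezh2-/- cells. Jarid2-/- cells and wild-type cells stand beside them for context. All 4 were labelled as cells of strain cj7 with no treatment, grown in serum with leukemia inhibitory factor (LIF). The labels list 2 small RNA samples for Eed-/-, 2 for Ezh2-/-, 1 for Jarid2-/- and 2 for wild-type. The deposited counts come as 1 column per genotype, and whether a column sums both samples is not given in the sources used here. Nothing in the labels says whether a mutant line is 1 clone. With 1 column per genotype there was no replicate and no test, so every difference below compares these columns and has no replicate check. Intervals are 95% and cover counting error only. Messenger RNA was not analysed here, so the loss of each targeted transcript was not checked.

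Eed and Ezh2 are core subunits of Polycomb repressive complex PRC2, which methylates histone H3 on silent developmental genes. Ezh2 is the main catalytic subunit. Eed is the scaffold that binds the methylated histone and is needed by the complexes of both Ezh2 and its paralog Ezh1, so the 2 losses do not remove the same set of complexes. A microRNA is cut from a hairpin as 2 arms, 5p and 3p, of which 1 usually accumulates, and bases 2 to 8 of the mature strand, the seed, pair with target messenger RNAs. ES cells are known for the miR-290 and miR-302 to miR-367 clusters. The Gtl2-Rian-Mirg locus (also Dlk1-Dio3) is an imprinted domain expressed from the maternal allele that carries one of the largest microRNA clusters in the mouse.

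The sequences of the microRNAs on which the comparison turned are shown with the seed in capitals, 5′ to 3′, from the deposited tables. The first set holds the most abundant members of the Gtl2-Rian-Mirg cluster in the Eed-/- column, each with a seed of its own, on the plus strand between chr12:110824578-110824597 and chr12:110981414-110981435 of mm9.
miR-541-5p: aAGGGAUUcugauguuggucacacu
miR-409-3p: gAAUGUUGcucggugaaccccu
miR-665-3p: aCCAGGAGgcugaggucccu
miR-154-3p: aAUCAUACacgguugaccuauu
miR-376b-3p: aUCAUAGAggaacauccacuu

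The second set holds both arms of 2 hairpins of the miR-290 cluster, because the 5p and 3p arms gave different ratios between the mutants. The miR-294 arms lie at chr7:3220656-3220677 and chr7:3220692-3220713, plus strand, mm9.
miR-294-5p: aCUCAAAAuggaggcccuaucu
miR-294-3p: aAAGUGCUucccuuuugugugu
miR-292-5p: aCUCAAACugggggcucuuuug
miR-292-3p: aAAGUGCCgccagguuuugagugu

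The third set holds pairs of microRNAs that differ by 1 base outside the seed, because the share of the lower-count member differed between the columns. Capitals mark the seed, and each substitution gives the base of the more abundant member, its position counted from 1 at the 5′ end, and the base of the less abundant one. The substitution is C11U between miR-19b-3p and miR-19a-3p, A10U between miR-7a-5p and miR-7b-5p, and A12C between miR-196a-5p and miR-196b-5p.
miR-19b-3p: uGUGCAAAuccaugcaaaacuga
miR-19a-3p: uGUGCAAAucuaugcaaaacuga
miR-7a-5p: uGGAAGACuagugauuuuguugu
miR-7b-5p: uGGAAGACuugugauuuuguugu
miR-196a-5p: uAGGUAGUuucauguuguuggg
miR-196b-5p: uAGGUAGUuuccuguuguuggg

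The last set holds the 2 arms of miR-142, the microRNA with the lowest log2 ratio of CPM + 1, at chr11:87570369-87570389 and chr11:87570405-87570427, plus strand, mm9.
miR-142-5p: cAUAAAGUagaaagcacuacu
miR-142-3p: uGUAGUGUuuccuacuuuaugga

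The columns held 42293019 microRNA counts for Eed-/- cells and 32074712 for Ezh2-/- cells, against 8485806 for Jarid2-/- and 23793733 for wild-type. A count of 0 allows up to 0.0709 CPM (counts scaled to 1000000 microRNA counts) in the Eed-/- column and 0.0935 CPM in the Ezh2-/- column. Of the 1091 loci, 849 had 10 or more counts in both columns, 217 in the Eed-/- column alone and 25 in the Ezh2-/- column alone. The minimum had a large weight on the median log2 ratio over all loci, which was 0.41 with 10 counts, 0.10 with 1 count and 0.99 with 100 counts. At the threshold itself ratios were small: the 23 loci whose larger count was exactly 10 had log2 ratios between -0.29 and 0.31, and the 31 loci just outside, at 9, between -0.26 and 0.28. Counts were concentrated in few microRNAs, and the 10 most abundant names of each column made up 62.0% of counts in Eed-/- cells and 73.1% in Ezh2-/- cells, when each name was counted once.

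Differences ran mostly towards higher values in Eed-/- cells. On log2(CPM + 1), 390 loci (35.7%) were at least 2-fold higher in Eed-/- cells than in Ezh2-/- cells and 50 (4.58%) at least 2-fold lower. The median log2 ratio over the 1091 loci was 0.41, with quartiles of -0.10 and 1.47. Trimmed-mean (TMM) factors shifted every ratio by -0.47 on the log2 scale before the pseudocount. Under them 305 loci (28.0%) were higher and 111 (10.2%) lower, and the median was 0.17. The surplus of higher over lower loci held under both scalings, but its size depended on the scaling. Loci with few counts could hardly pass the 2-fold mark because of the pseudocount: 2 of the 277 loci with a larger count between 10 and 49 did, against 166 of 349 from 50 to under 1000 and 222 of 465 from 1000 up. In the scatter of the 2 columns, the Gtl2-Rian-Mirg loci form a band of their own, far above the diagonal.

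**Figure D1:**
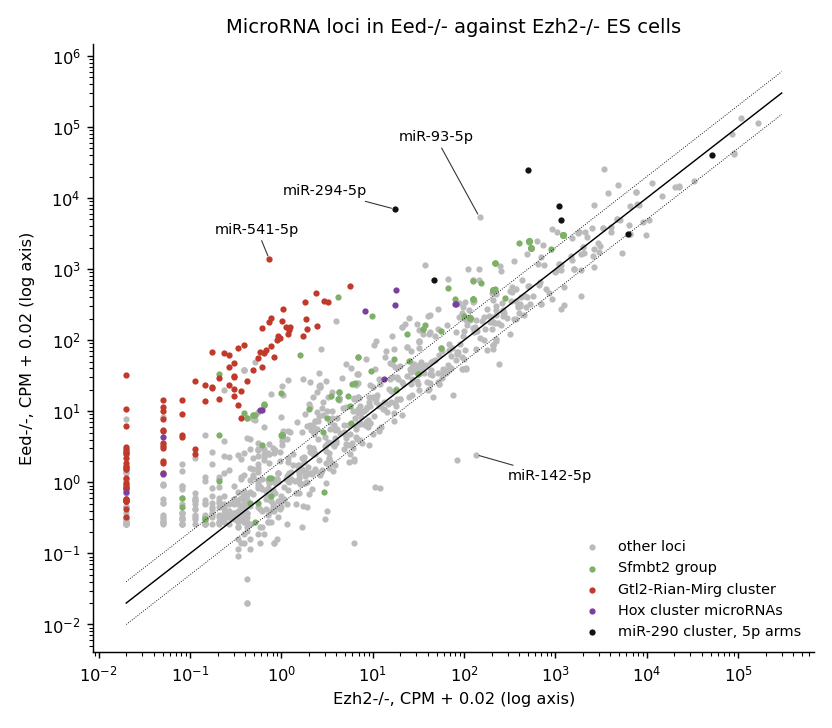
CPM of each of the 1091 loci in the Eed-/- column (vertical) against the Ezh2-/- column (horizontal), both on log axes with 0.02 CPM added. The solid line marks equal values and the dotted lines 2-fold differences. The Gtl2-Rian-Mirg loci lie far above the diagonal, miR-541-5p and miR-294-5p reach log2 ratios of 9.64 and 8.56, and miR-142-5p lies far below it.

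The largest difference was in the Gtl2-Rian-Mirg cluster. Its 109 plus-strand loci, from miR-770 to miR-3072 at chr12:110801920-110986159 (mm9), held 313626 counts in Eed-/- cells and 1522 in Ezh2-/- cells. They made up 0.742% of microRNA counts in Eed-/- cells and 0.00475% in Ezh2-/- cells, a 156-fold difference (149 to 164), or 113-fold with TMM factors. Jarid2-/- cells had 0.275% and wild-type cells 4.80%. Both core mutants were thus below wild-type, with Eed-/- cells nearer to Jarid2-/- than to Ezh2-/- cells. Of the 98 cluster loci with 10 or more counts, 86 were at least 2-fold higher in Eed-/- cells and 0 lower. Of the 993 loci not in this plus-strand set, 304 were higher and 50 lower. The cluster's median log2 ratio was 3.92 (3.66 with TMM factors), beside 0.30 outside it (0.09 with TMM factors).

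In Ezh2-/- cells most of these microRNAs were close to the limit of counting. The median member had 754.5 counts in Eed-/- cells and 5 in Ezh2-/- cells, and no member passed 181 counts in Ezh2-/- cells, against 58095 in Eed-/- cells. In Ezh2-/- cells 27 of the 98 loci had no count, and 46 had 3 or fewer. The pseudocount of 1 CPM therefore understated the ratios: without it, and with counts under 3 in Ezh2-/- cells set at 3, the median log2 ratio was 6.32. Among the 45 members with 1000 or more counts in Eed-/- cells, 43 had more than 3 counts in Ezh2-/- cells. Their folds without pseudocount lay between 63.7 and 1916, with a median of 120 and quartiles of 105 and 196. These members were picked by their Eed-/- counts, which left out lower folds such as 23.6 for miR-3072-3p and 38.6 for miR-341-3p. Their folds therefore do not give the spread over the whole cluster. Of the 43, 1 member lay far above the rest.

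That member was miR-541-5p, with 58095 counts in Eed-/- cells, 23 in Ezh2-/- cells, 1667 in Jarid2-/- cells and 20219 in wild-type cells. It was 1916-fold higher in Eed-/- than in Ezh2-/- cells (1277 to 3022), and it alone held 18.5% of the cluster's counts in Eed-/- cells, against 1.51% in Ezh2-/- cells, 7.15% in Jarid2-/- cells and 1.77% in wild-type cells. Without it the cluster's summed fold was 129 (123 to 136). The other arm of the same hairpin, miR-541-3p, had 892 counts in Eed-/- cells and 5 in Ezh2-/- cells. That was a 135-fold difference, near the median of 120 for the abundant members.

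The difference extended over all 4 stretches of the domain. In the Gtl2-proximal stretch, which ends before miR-431, 9 of 13 loci were higher and the summed counts differed 177-fold (151 to 209). Its most abundant member, miR-665-3p, had 19803 counts in Eed-/- cells, 76 in Ezh2-/- cells, 2782 in Jarid2-/- cells and 91052 in wild-type cells. In the same stretch miR-337-3p had 7668 counts in Eed-/- cells, 23 in Ezh2-/- cells, 73 in Jarid2-/- cells and 26923 in wild-type cells. In the stretch antisense to Rtl1, a retrotransposon-derived gene expressed from the paternal allele, 10 of 10 loci were higher and the summed fold was 157 (134 to 185). There miR-136-5p had 8574 counts in Eed-/- cells, 24 in Ezh2-/- cells, 78 in Jarid2-/- cells and 9380 in wild-type cells. By contrast miR-127-3p had 6436 counts in Eed-/- cells, 39 in Ezh2-/- cells, 393 in Jarid2-/- cells and 46523 in wild-type cells. Scaled to each column's total, miR-136-5p had 203 CPM in Eed-/- cells and 394 CPM in wild-type cells, and miR-127-3p 152 CPM in Eed-/- cells and 1955 CPM in wild-type cells. Both were below wild-type in Eed-/- cells, to different degrees.

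In the Rian stretch, which holds mainly small nucleolar RNAs, 3 of 4 loci were higher, and the summed fold was 86.0 (60.5 to 127), the lowest of the 4 stretches. Its most abundant member, miR-370-3p, had 2856 counts in Eed-/- cells, 18 in Ezh2-/- cells, 475 in Jarid2-/- cells and 8108 in wild-type cells. The Mirg stretch holds most of the cluster, and 64 of its 71 loci were higher, with a summed fold of 155 (147 to 165). Here miR-409-3p had 24647 counts in Eed-/- cells, 181 in Ezh2-/- cells, 262 in Jarid2-/- cells and 104289 in wild-type cells. Likewise miR-154-3p had 14858 counts in Eed-/- cells, 94 in Ezh2-/- cells, 1207 in Jarid2-/- cells and 78956 in wild-type cells. The 3 members of the miR-376 group with the most counts were all higher in Eed-/- cells, to different degrees. The fold was 194 for miR-376b-3p (150 to 257), 264 for miR-376c-3p (188 to 384) and 109 for miR-376a-3p (73.4 to 171). Further abundant members of the stretch also had far more counts in Eed-/- cells. There were 7785 counts of miR-134-5p in Eed-/- cells and 32 in Ezh2-/- cells, 6456 of miR-495-3p in Eed-/- cells and 35 in Ezh2-/- cells, and 8520 of miR-379-5p in Eed-/- cells and 59 in Ezh2-/- cells. Of the members with no count in Ezh2-/- cells, miR-380-3p had the most in Eed-/- cells, 1376, which made it at least 348-fold higher when 3 counts are taken as the limit in the Ezh2-/- column. In the named set of cluster members with 50 or more counts, miR-494-5p gave the lowest log2 ratio, 1.19, but it had 57 counts in Eed-/- cells and 1 in Ezh2-/- cells, so its ratio was set by the pseudocount.

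The 6 minus-strand loci within the same span overlap plus-strand hairpins. The pair from miR-299b reached the 2-fold mark, with 2107 counts of miR-299b-5p in Eed-/- cells and 16 in Ezh2-/- cells. Its closest match in sequence, miR-299a-5p of the plus strand, had 2335 and 17 counts. Reads of 2 such near-identical strands cannot be told apart here. The plot along the domain shows the Ezh2-/- points at the bottom of every stretch.

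**Figure D2:**
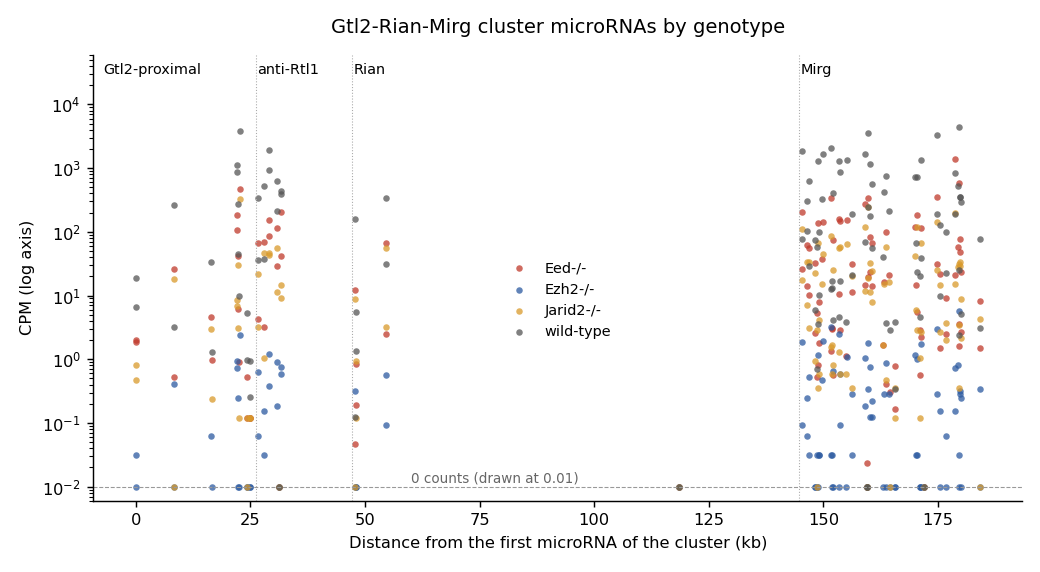
CPM (log axis) of the 109 plus-strand loci of the Gtl2-Rian-Mirg cluster by distance from its first microRNA in kb, 1 point per locus and genotype column, with counts of 0 drawn at 0.01 CPM on the dashed line. Dotted lines separate the 4 stretches. Summed over each stretch, Eed-/- (0.742% of its microRNA counts in all) lies between wild-type (4.80%) and Ezh2-/- (0.00475%).

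MicroRNAs inside the Hox clusters, classical targets of PRC2, were also higher in Eed-/- cells. Of 11 measured loci, 10 were at least 2-fold higher and 0 lower (9 higher with TMM factors). The shares over all loci were 35.7% higher and 4.58% lower (28.0% higher with TMM factors). Counted per name, 9 of 10 Hox cluster microRNAs were higher. The 11 loci had a median log2 ratio of 2.36. Together they made up 0.177% of counts in Eed-/- cells, 0.022% in Ezh2-/- cells, 0.003% in Jarid2-/- cells and 0.021% in wild-type cells. The Ezh2-/- share was therefore close to wild-type, and the Eed-/- share was 8.07-fold higher than in Ezh2-/- cells (7.87 to 8.27). From beside Hoxb4, miR-10a-5p had 10816 counts in Eed-/- cells, 263 in Ezh2-/- cells, 61 in Jarid2-/- cells and 208 in wild-type cells. Its sister beside Hoxd4, miR-10b-5p, had 21285 counts in Eed-/- cells, 573 in Ezh2-/- cells, 102 in Jarid2-/- cells and 361 in wild-type cells. They were 31.2-fold (27.6 to 35.4) and 28.2-fold (25.9 to 30.7) higher in Eed-/- than in Ezh2-/- cells. From the Hoxa cluster, miR-196b-5p was 17.8-fold higher (16.3 to 19.4), and miR-196a-5p, made from both the Hoxb and Hoxc clusters, 4.01-fold (3.85 to 4.18). All 4 have a relative that differs by 1 base: miR-196b-5p took different shares of its pair in the mutants, as described further on, whereas miR-10a-5p held 33.7% of its pair with miR-10b-5p in Eed-/- cells and 31.5% in Ezh2-/- cells (A12U). Chosen after its value was seen, miR-615-3p, from an intron of Hoxc5, has no such relative. It had 444 counts in Eed-/- cells, 18 in Ezh2-/- cells, 2 in Jarid2-/- cells and 20 in wild-type cells, an 18.7-fold difference between the core mutants (11.7 to 31.9). Named microRNAs from all 4 Hox clusters had more counts in Eed-/- cells. Of these, miR-615-3p was picked by its value, and the others each have a 1-base relative. How much each cluster gave on its own was not tested.

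Other imprinted microRNAs did not differ as 1 group. Of 10 loci, 6 were at least 2-fold higher in Eed-/- cells and 1 was lower, with a median log2 ratio of 1.57. Over all loci 35.7% were higher and 4.58% lower. Named after their values were seen, miR-675-3p and miR-675-5p are cut from H19, a maternally expressed long RNA. There were 835 counts of miR-675-3p in Eed-/- cells, 7 in Ezh2-/- cells, 11 in Jarid2-/- cells and 117 in wild-type cells. There were 345 counts of miR-675-5p in Eed-/- cells, 1 in Ezh2-/- cells, 3 in Jarid2-/- cells and 23 in wild-type cells. The order Eed-/- above wild-type above Ezh2-/- held for both arms. In an intron of the neighbouring, paternally expressed Igf2 gene, miR-483-3p had 4057 counts in Eed-/- cells, 344 in Ezh2-/- cells, 25 in Jarid2-/- cells and 293 in wild-type cells, 8.94-fold more in Eed-/- than in Ezh2-/- cells (8.01 to 10.0). At the Gnas domain, miR-298-5p was 3.72-fold higher (3.64 to 3.79) and miR-296-5p 2.39-fold (2.29 to 2.49). In contrast miR-335-3p, from an intron of the paternally expressed Mest gene, was lower in Eed-/- cells, with 102 CPM against 224 CPM in Ezh2-/- cells, and miR-335-5p had 318 CPM against 414 CPM.

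**Figure D3:**
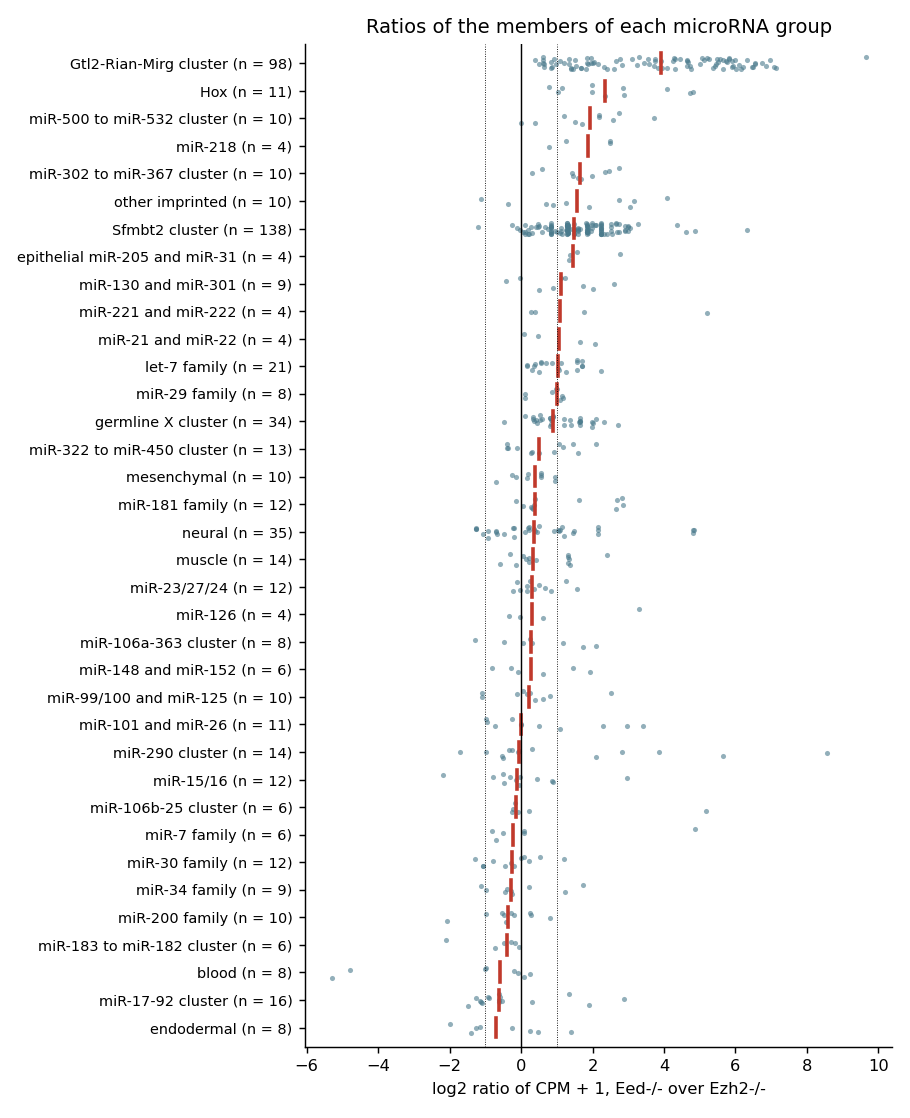
Log2 ratio of CPM + 1, Eed-/- over Ezh2-/-, for each measured locus (points) of each microRNA group with at least 4 of them, with the group's median as a bar and dotted lines at 2-fold. The Gtl2-Rian-Mirg cluster has the highest median, 3.92, followed by the Hox cluster microRNAs at 2.36, and the endodermal list the lowest.

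The ES cell microRNAs checked the labelled cell type. The miR-290 cluster, the most abundant microRNAs of mouse ES cells, made up 44.4% of counts in Eed-/- cells and 45.9% in Ezh2-/- cells, beside 38.2% in Jarid2-/- cells and 39.7% in wild-type cells. Its summed counts differed 0.967-fold. The miR-302 to miR-367 cluster, which is typical of the later, epiblast-like pluripotent state, was higher. In it 8 of 10 loci were at least 2-fold higher in Eed-/- cells and 0 lower (6 higher with TMM factors). The share higher over all loci was 35.7% (28.0% with TMM factors). This cluster's summed fold was 2.98 (2.97 to 3.00). Its most abundant member, miR-302d-3p, had 7988 CPM in Eed-/- cells, 2655 CPM in Ezh2-/- cells, 6049 CPM in Jarid2-/- cells and 3784 CPM in wild-type cells. Likewise miR-302b-3p was 3.22-fold higher (3.18 to 3.26) and miR-302a-3p 3.96-fold (3.91 to 4.02). The summed level of the cluster stayed far below that of the miR-290 cluster in both mutants, with 1.56% of counts in Eed-/- cells and 0.522% in Ezh2-/- cells.

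Within the miR-290 cluster the arms did not go together. The abundant strands differed little: miR-294-3p had 115428 CPM in Eed-/- cells and 164809 CPM in Ezh2-/- cells, and miR-293-3p 133783 CPM in Eed-/- cells and 108603 CPM in Ezh2-/- cells. In the same way miR-292-3p gave a log2 ratio of -0.09, miR-290a-5p -0.35 and miR-295-3p -0.54. The passenger 5p strands differed widely. There were 294687 counts of miR-294-5p in Eed-/- cells, 561 in Ezh2-/- cells, 32281 in Jarid2-/- cells and 2297 in wild-type cells, 398-fold more in Eed-/- than in Ezh2-/- cells. The 5p strand thus took 5.69% of the hairpin's counts in Eed-/- cells, 0.0106% in Ezh2-/- cells, 2.45% in Jarid2-/- cells and 0.0631% in wild-type cells. For miR-292-5p the counts were 1047738 in Eed-/- cells, 15885 in Ezh2-/- cells, 189702 in Jarid2-/- cells and 85237 in wild-type cells, which is 23.6%, 0.577%, 33.9% and 11.8% of the hairpin. For miR-295-5p they were 29868 in Eed-/- cells, 1521 in Ezh2-/- cells, 18601 in Jarid2-/- cells and 1659 in wild-type cells. Other 5p strands, miR-291a-5p and miR-291b-5p, were 7.13-fold and 4.27-fold higher in Eed-/- cells, whereas miR-293-5p had a log2 ratio of -0.99 and miR-291b-3p one of -1.72. For miR-294, miR-292 and miR-295 the 5p shares of both Eed-/- and Jarid2-/- cells lay above wild-type, and the Ezh2-/- shares below it. Which technical features the Eed-/- and Jarid2-/- columns share is not given in the sources used here, and their part in these arm differences was not tested.

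**Figure D4:**
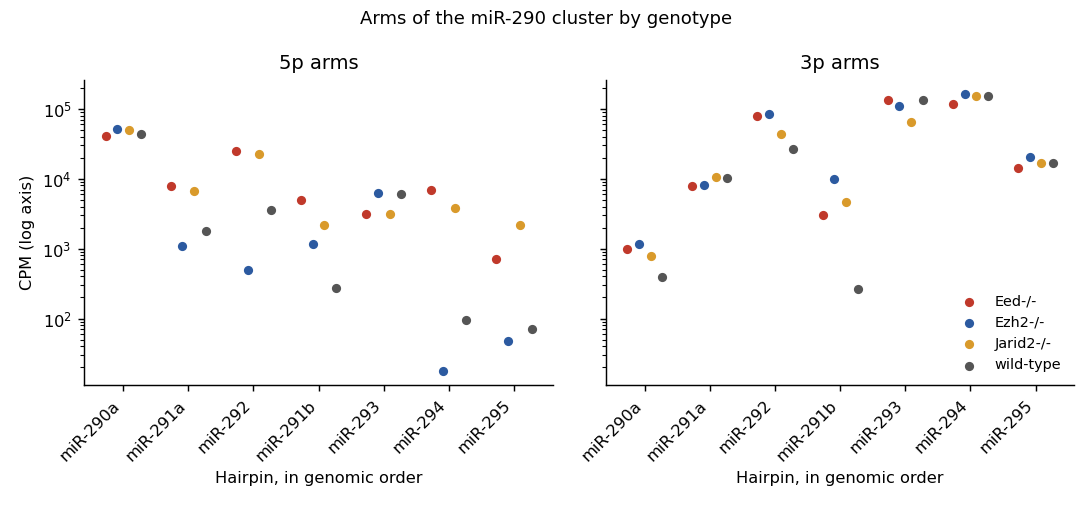
CPM (log axis) of the 5p arms (left) and 3p arms (right) of the 7 expressed hairpins of the miR-290 cluster, 1 point per genotype column. On the 3p side the points of most hairpins lie close together, while miR-294-5p, miR-292-5p and miR-295-5p lie far higher in Eed-/- and Jarid2-/- than in Ezh2-/- cells.

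The hairpin of miR-294 in RefSeq, 84 bases on the plus strand of chromosome 7 in GRCm38.p6, is shown to place the 2 arms, which are in capitals.
Mir294: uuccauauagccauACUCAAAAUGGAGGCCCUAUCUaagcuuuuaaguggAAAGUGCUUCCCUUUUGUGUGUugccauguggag

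Clusters tied to proliferation went the other way or were mixed. For these clusters, the shares to set beside are those over all loci. They were 35.7% higher and 4.58% lower (28.0% and 10.2% with TMM factors). In the miR-17-92 group, known as an oncogenic cluster, 3 of 16 loci were at least 2-fold higher in Eed-/- cells and 5 lower, and with TMM factors 2 were higher and 11 lower. The group made up 16.5% of counts in Eed-/- cells and 27.5% in Ezh2-/- cells, 0.598-fold. It was drawn by name and so took in X-linked copies such as miR-92a-2-5p. By position, the chromosome 14 cluster alone had 3 of 12 loci higher and 3 lower, with a summed fold of 0.668. The level of miR-17-5p was 17242 CPM in Eed-/- cells and 32791 CPM in Ezh2-/- cells, and that of miR-92a-3p 14729 CPM in Eed-/- cells and 22729 CPM in Ezh2-/- cells. The exceptions were miR-19a-3p, at 25240 CPM in Eed-/- cells and 3396 CPM in Ezh2-/- cells, and the passenger strands miR-17-3p (3.73-fold higher) and miR-20a-3p (2.57-fold higher). In the related miR-106a-363 group, 3 of 8 loci were higher and 1 lower, and miR-106a-5p differed 1.05-fold. This group left out the copies counted by name under miR-17-92. By position, the X-linked cluster had 3 of 12 loci higher and 3 lower, with a summed fold of 0.573. In miR-106b-25, 1 of 6 was higher: miR-93-5p had 227071 counts in Eed-/- cells, 4733 in Ezh2-/- cells, 3952 in Jarid2-/- cells and 4239 in wild-type cells. That was 36.4-fold more in Eed-/- than in Ezh2-/- cells (35.4 to 37.5). The arms of its neighbours gave no such difference, with log2 ratios of -0.26 for miR-25-3p and -0.17 for miR-106b-5p, and its own other arm, miR-93-3p, gave 0.22.

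Differentiation-linked microRNAs were mixed as well. Over all loci, 35.7% were higher and 4.58% lower (28.0% and 10.2% with TMM factors). The let-7 family, which accumulates when ES cells differentiate, had 11 of 21 loci at least 2-fold higher in Eed-/- cells and 0 lower (7 higher with TMM factors), with a summed fold of 2.38. The members with most counts spread: let-7e-5p had 70.0 CPM in Eed-/- cells and 13.9 CPM in Ezh2-/- cells, let-7a-5p 96.0 CPM in Eed-/- cells and 31.8 CPM in Ezh2-/- cells, and let-7g-5p 88.1 CPM in Eed-/- cells and 67.9 CPM in Ezh2-/- cells. Most let-7 members have a near-identical relative, and of the 8 loci without one 2 were higher. On the neural list, 13 of 35 loci were higher and 4 lower (7 and 9 with TMM factors). With total scaling the higher share was near that over all loci. Counted per name, 7 of 23 were higher and 2 lower. The brain microRNA miR-124-3p had 993 CPM in Eed-/- cells, 1599 CPM in Ezh2-/- cells, 15.7 CPM in Jarid2-/- cells and 1014 CPM in wild-type cells. Chosen after its value was seen, miR-9-5p, a microRNA of neural progenitors, had 1609 counts at its chromosome 3 locus in Eed-/- cells, 12 in Ezh2-/- cells, 20 in Jarid2-/- cells and 58 in wild-type cells, 102-fold more in Eed-/- than in Ezh2-/- cells (58.1 to 197). Its other arm, miR-9-3p, was 4.91-fold higher at the same locus. Further neural members were closer, with 2.78-fold for miR-138-5p and 1.17-fold for miR-129-2-3p.

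Epithelial microRNAs divided into 2 sets. Over all loci, the higher and lower shares were 35.7% and 4.58% (28.0% and 10.2% with TMM factors). The miR-200 family, which keeps epithelial cells from becoming mesenchymal, had 0 of 10 loci higher and 1 lower (0 and 2 with TMM factors). Its summed counts were 0.513-fold. The 1 locus lower with total scaling was miR-141-3p, at 273 CPM in Eed-/- cells and 1158 CPM in Ezh2-/- cells. Of the epithelial miR-205 and miR-31, 4 of 4 loci were at least 2-fold higher (3 with TMM factors). There were 42739 counts of miR-205-5p in Eed-/- cells, 4705 in Ezh2-/- cells, 34689 in Jarid2-/- cells and 36984 in wild-type cells, 6.89-fold more in Eed-/- than in Ezh2-/- cells (6.69 to 7.10), and miR-31-5p was 2.94-fold higher. The miR-183 to miR-182 cluster, of sensory cells, had 0 of 6 loci higher and 1 lower (0 and 2 with TMM factors).

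With total scaling, the lower loci of the endodermal list came from several hairpins and those of the blood list from 1. Of 8 endodermal loci, 4 were at least 2-fold lower in Eed-/- cells and 1 higher (4 and 0 with TMM factors). Counted per name, 3 of 7 were lower and 1 higher. The shares over all loci were 4.58% lower and 35.7% higher (10.2% and 28.0% with TMM factors). Summed over loci, the endodermal counts were 0.280-fold. The level of miR-192-5p, a microRNA of gut, liver and kidney epithelium, was 316 CPM in Eed-/- cells, 1257 CPM in Ezh2-/- cells, 436 CPM in Jarid2-/- cells and 413 CPM in wild-type cells. Its cluster partner miR-194-5p had 39.8 CPM in Eed-/- cells and 106 CPM in Ezh2-/- cells. Of the 4 columns, the Ezh2-/- column had the most of both. On the blood list 0 of 8 loci were higher and 2 lower (0 and 4 with TMM factors). The 2 lower with total scaling were both arms of miR-142, a microRNA of hematopoietic cells. There were 103 counts of miR-142-5p in Eed-/- cells, 4296 in Ezh2-/- cells, 333 in Jarid2-/- cells and 5056 in wild-type cells, 0.0182-fold in Eed-/- relative to Ezh2-/- cells (0.0148 to 0.0221). There were 87 counts of miR-142-3p in Eed-/- cells, 2700 in Ezh2-/- cells, 270 in Jarid2-/- cells and 2423 in wild-type cells. These were the 2 lowest log2 ratios of the comparison, at -5.30 and -4.80, and here the Ezh2-/- level was the one near wild-type. The most abundant member of the list, miR-150-5p, had 4595 CPM in Eed-/- cells and 9074 CPM in Ezh2-/- cells.

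On the muscle list 6 of 14 loci were higher and 0 lower (4 higher with TMM factors), beside 35.7% higher over all loci (28.0% with TMM factors). Its member miR-206-3p, which is made in skeletal muscle, had 671 counts in Eed-/- cells and 71 in Ezh2-/- cells. On the mesenchymal list 0 of 10 loci were higher and 0 lower (1 lower with TMM factors).

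The marker lists of other cell types were summed over their names to set these values in context. The blood list summed to 4786 CPM in Eed-/- cells and 9475 CPM in Ezh2-/- cells, with 2 of 12 names at 0 in each. The endodermal list summed to 376 CPM in Eed-/- cells and 1386 CPM in Ezh2-/- cells, with 4 and 3 of 11 names at 0. The neural list summed to 2796 CPM in Eed-/- cells and 2897 CPM in Ezh2-/- cells, with 0 and 1 of 28 names at 0. The mesenchymal list summed to 620 CPM in Eed-/- cells and 667 CPM in Ezh2-/- cells, with 1 and 3 of 11 names at 0. The muscle list summed to 37.2 CPM in Eed-/- cells and 15.9 CPM in Ezh2-/- cells, with 1 and 5 of 18 names at 0. Whether other cell types in the cultures took part in the differences was not tested, and in bulk samples fewer cells of a type and less RNA per cell cannot be told apart.

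The largest group by number was that of the Sfmbt2 intron, a cluster of many near-identical copies on chromosome 2 inside a Polycomb group gene that is imprinted in extraembryonic tissue. Of its 138 measured loci, 106 were at least 2-fold higher in Eed-/- cells and 1 lower (74 and 1 with TMM factors). The shares over all loci were 35.7% higher and 4.58% lower (28.0% and 10.2% with TMM factors). The group had a median log2 ratio of 1.47. The group made up 11.6% of counts in Eed-/- cells, 3.69% in Ezh2-/- cells, 11.4% in Jarid2-/- cells and 6.19% in wild-type cells, 3.15-fold between the core mutants. These loci share sequences and often names, so they are not separate observations: miR-669a-5p and miR-669p-5p carry the same 127242 counts in Eed-/- cells and the same 39265 in Ezh2-/- cells. The group filled much of the count of higher loci outside the Gtl2-Rian-Mirg cluster. With both left out, 198 of 855 loci were higher and 49 lower, and the median log2 ratio was 0.22. The member with the highest ratio, miR-466o-3p, had 17398 counts in Eed-/- cells, 133 in Ezh2-/- cells, 7156 in Jarid2-/- cells and 278 in wild-type cells, while its other arm, with 192 counts in Eed-/- cells and 32 in Ezh2-/- cells, differed far less.

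The X-linked clusters described here had between 5 of 13 and 8 of 10 loci higher in Eed-/- cells. The X-linked miR-106a-363 cluster, given above, had 3 of 12 higher and 3 lower. In the miR-500 to miR-532 cluster, inside an intron of the chloride channel gene Clcn5, 8 of 10 loci were at least 2-fold higher and 0 lower (7 higher with TMM factors), with a summed fold of 3.24 (3.19 to 3.29). The level of miR-532-5p was 1121 CPM in Eed-/- cells, 245 CPM in Ezh2-/- cells, 842 CPM in Jarid2-/- cells and 633 CPM in wild-type cells. In the cluster expressed in germ cells, 16 of 34 loci were higher and 0 lower, beside 35.7% higher over all loci. There miR-880-3p had 948 counts in Eed-/- cells, 82 in Ezh2-/- cells, 32 in Jarid2-/- cells and 283 in wild-type cells, an 8.77-fold difference (6.99 to 11.1). In the miR-322 to miR-450 cluster 5 of 13 loci were higher and 0 lower, near the 35.7% over all loci, and 3 were higher with TMM factors, beside 28.0% over all loci. There miR-322-5p was 2.11-fold higher. Loci of the X chromosome outside the clusters described here, with miR-106a-363 included, were higher in 15 of 55 cases and lower in 4.

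Among smaller groups, miR-218, which sits in introns of the Slit genes, had 3 of 4 loci higher (2 with TMM factors) and a summed fold of 5.63 (5.51 to 5.77), with 710 CPM of miR-218-5p in Eed-/- cells and 127 CPM in Ezh2-/- cells. The miR-130 and miR-301 family had 5 of 9 loci higher and 0 lower (3 higher with TMM factors), led by miR-130b-3p at 4.02-fold. Of the miR-29 family 4 of 8 loci were higher, but 0 with TMM factors. Over all loci 35.7% were higher and 4.58% lower, or 28.0% and 10.2% with TMM factors. Of miR-21 and miR-22, miR-21a-5p was 3.14-fold higher (3.12 to 3.15) and miR-22-3p 1.07-fold. In the miR-34 family, which responds to p53, 2 of 9 loci were higher and 1 lower, and miR-34a-5p had 4929 CPM in Eed-/- cells and 10641 CPM in Ezh2-/- cells. In the miR-30 family 1 of 12 was higher and 3 lower. In the miR-101 family, which targets Ezh2 messenger RNA in human cancer cells, miR-101a-3p had 711 CPM in Eed-/- cells and 144 CPM in Ezh2-/- cells, and miR-101b-3p 731 CPM in Eed-/- cells and 67.2 CPM in Ezh2-/- cells. In the miR-221 and miR-222 cluster, which represses cell cycle inhibitors, 2 of 4 loci were higher. There were 7777 counts of miR-221-3p in Eed-/- cells, 128 in Ezh2-/- cells, 401 in Jarid2-/- cells and 5252 in wild-type cells, but miR-221-5p had 240 counts in Eed-/- cells and 131 in Ezh2-/- cells.

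Other low ratios were spread over abundant and rare microRNAs. With many counts in both columns, miR-15a-5p, a microRNA that restrains the cell cycle, had 414 CPM in Eed-/- cells and 1883 CPM in Ezh2-/- cells, a log2 ratio of -2.18. Next, miR-182-3p gave -2.10, miR-141-3p -2.08, miR-192-5p -1.99, miR-291b-3p -1.72 and miR-135b-5p -1.71. The level of miR-135b-5p was 1658 CPM in Eed-/- cells and 5413 CPM in Ezh2-/- cells. A last one, miR-92a-2-5p, gave -1.48. Above 1000 counts in both columns there was also miR-378a-5p, which had 1968 counts in Eed-/- cells and 7826 in Ezh2-/- cells. The remaining names among the 15 lowest had few counts: miR-6375 had 34 in Eed-/- cells and 383 in Ezh2-/- cells, miR-6398 had 35 and 335, miR-1964-5p had 5 and 199, miR-3572-3p had 16 and 101, and miR-7070-3p had 12 and 96. The pseudocount shrinks the ratios of such rare names: without it miR-1964-5p was 0.0191-fold in Eed-/- relative to Ezh2-/- cells (0.00612 to 0.0452), beside a log2 ratio of -2.69 with it. Few of the low names belonged to 1 cluster, unlike the high ones. Of the 15 highest, 13 came from the Gtl2-Rian-Mirg cluster, and the other 2 were miR-294-5p and miR-466o-3p.

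Higher loci were more frequent among names with a near-identical relative, a feature not used to choose the loci. Outside the Gtl2-Rian-Mirg cluster, 77 of 144 names (53.5%) with another mature sequence within 1 mismatch were at least 2-fold higher in Eed-/- cells. Of names whose nearest relative had 2 or 3 mismatches it was 37 of 106 (34.9%), and of names with 4 or more 118 of 627 (18.8%). In that last set 34 names (5.42%) were lower, and with TMM factors 82 were higher and 78 lower, so higher and lower names were nearly even there. The Sfmbt2 group was kept in this split, and it had 51 of 72 names higher. Only 14 of its 138 measured loci had no relative within 1 mismatch, and 8 of these were higher. The split therefore does not separate a near-identical relative from membership of that 1 cluster. The Gtl2-Rian-Mirg cluster did not depend on such relatives: of its 98 loci 94 have none within 1 mismatch, and 82 of these were higher.

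Pairs that differ by exactly 1 base were also compared, at higher depth. In 27 pairs of the same length, with both members at 1000 or more counts in 1 of the 2 columns, the lower-count member held a larger share of the pair in Eed-/- cells than in Ezh2-/- cells in 24 cases. Pairs share members, so they are not independent. Several lower-count members passed the minimum only through the Eed-/- column. Examples are miR-10a-5p, with 10816 counts in Eed-/- and 263 in Ezh2-/- cells, and miR-467h, with 9382 and 316. The filter thus favours a larger share in Eed-/- cells, and the 24 cases are a description only. The lower-count miR-19a-3p held 37.4% of its pair with miR-19b-3p in Eed-/- cells, 3.59% in Ezh2-/- cells, 36.6% in Jarid2-/- cells and 4.43% in wild-type cells (C11U). For miR-7b-5p beside miR-7a-5p the shares were 18.2% in Eed-/- cells, 0.784% in Ezh2-/- cells, 14.1% in Jarid2-/- cells and 0.523% in wild-type cells (A10U). For miR-196b-5p beside miR-196a-5p they were 48.9% in Eed-/- cells, 17.7% in Ezh2-/- cells, 45.2% in Jarid2-/- cells and 15.2% in wild-type cells (A12C). In these 3 pairs Eed-/- cells resembled Jarid2-/- cells, and Ezh2-/- cells wild-type. The pair of miR-181b-5p and miR-181d-5p was less clear, with 31.6% in Eed-/- cells, 7.35% in Ezh2-/- cells, 16.6% in Jarid2-/- cells and 13.6% in wild-type cells (U12C). The 3 exceptions were let-7f-5p beside let-7a-5p (G12A), with 32.7% in Eed-/- cells and 47.0% in Ezh2-/- cells, miR-23a-3p beside miR-23b-3p (A19U), with 45.5% in Eed-/- cells and 51.1% in Ezh2-/- cells, and miR-27b-3p beside miR-27a-3p (C19U), with 40.9% in Eed-/- cells and 42.3% in Ezh2-/- cells.

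Under the same filter, most lower-count members had the larger share in Eed-/- cells, whether the separating base lay at positions 9 to 13 or later. Of 15 pairs with a base at 9 to 13, 14 had the larger share in Eed-/- cells, with median shares of 32.8% in Eed-/- cells, 19.3% in Ezh2-/- cells, 37.4% in Jarid2-/- cells and 28.2% in wild-type cells. Of 11 pairs with a base at 14 or later, it was 9, with medians of 45.2% in Eed-/- cells, 33.3% in Ezh2-/- cells, 44.2% in Jarid2-/- cells and 37.0% in wild-type cells. How the authors assigned reads with a mismatch or with several matches is not given in the sources used here, and its part in the ratios was not tested.

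**Figure D5:**
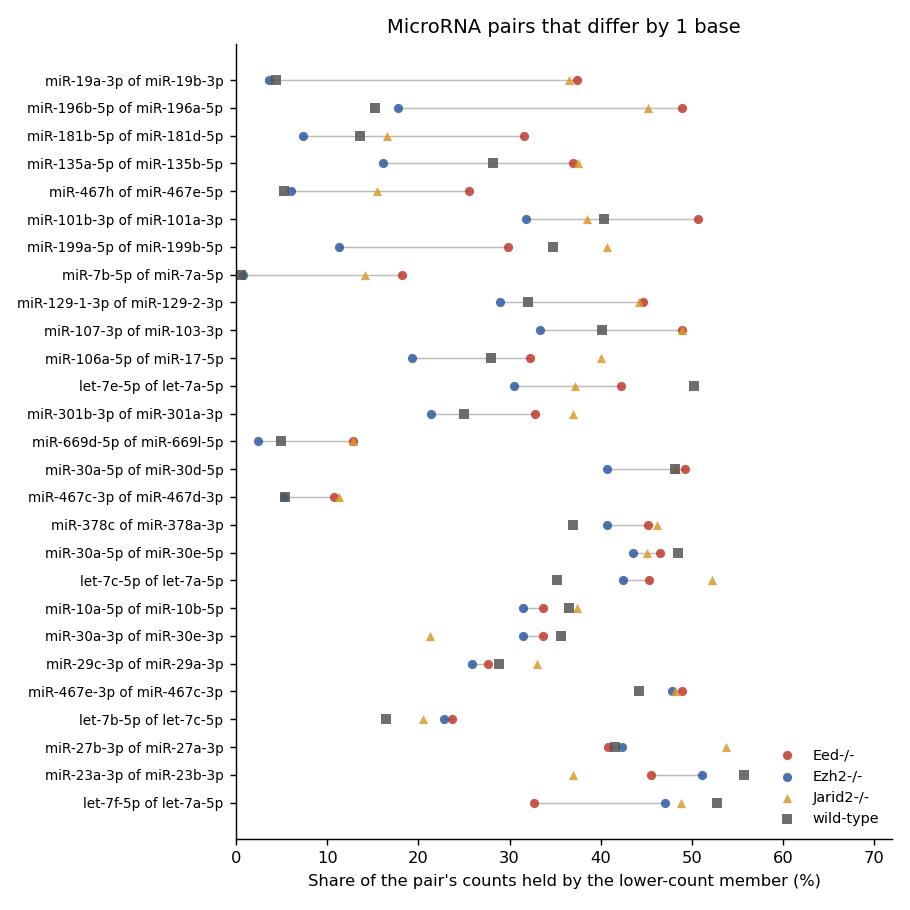
Share of a pair's counts held by the member with fewer counts in the 2 core mutants (horizontal, %), for the 27 pairs of microRNAs that differ by 1 base, with 1 point per genotype column and a grey line from Ezh2-/- to Eed-/-. The Eed-/- share is the larger of the 2 in 24 pairs, and in the top pair it is 37.4% against 3.59% in Ezh2-/- cells.

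Arms of 1 hairpin were compared throughout, since their ratio does not depend on the scaling. Both arms had 50 or more counts in both columns in 202 hairpins, and in 62 of them the log2 ratios of the arms, without pseudocount, differed by 1 or more. The 5p arm was the higher in Eed-/- cells in 35 and the 3p arm in 27. The median size of the difference was 0.68, and in 14 hairpins it was 3 or more. After miR-294 and miR-292, miR-93 had the largest difference towards 5p: this arm held 96.1% of the hairpin in Eed-/- cells, 43.8% in Ezh2-/- cells, 57.7% in Jarid2-/- cells and 55.5% in wild-type cells. The reverse held for miR-221, whose 5p arm had 2.99% in Eed-/- cells, 50.6% in Ezh2-/- cells, 4.75% in Jarid2-/- cells and 5.06% in wild-type cells, and for miR-101b, with 0.643% in Eed-/- cells, 13.1% in Ezh2-/- cells, 1.35% in Jarid2-/- cells and 4.88% in wild-type cells. Eed-/- stood apart in the case of miR-93, and Ezh2-/- in that of miR-221. On the scale with a pseudocount miR-7b, miR-541, miR-466o, miR-494 and miR-543 ranked with these, but each had an arm with fewer than 50 counts in 1 of the columns.

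The hairpins of miR-93 and miR-221 in RefSeq, on the minus strands of chromosomes 5 and X in GRCm38.p6, are shown with both arms in capitals, since only 1 arm of each differed widely.
Mir93: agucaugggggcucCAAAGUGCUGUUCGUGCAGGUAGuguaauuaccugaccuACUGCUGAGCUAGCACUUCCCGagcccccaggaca
Mir221: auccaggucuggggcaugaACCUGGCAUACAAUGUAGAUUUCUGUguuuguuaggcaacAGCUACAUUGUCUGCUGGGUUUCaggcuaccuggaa

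Summed by seed, with each name counted once, the most abundant seeds differed less than 2-fold. The seed AAGUGCU, shared by miR-294-3p, miR-295-3p and 3 of the miR-302 3p strands among others, took 18.3% of counts in Eed-/- cells and 23.9% in Ezh2-/- cells. GUGCCGC of miR-293-3p took 16.2% in Eed-/- cells and 13.1% in Ezh2-/- cells, AAGUGCC of miR-292-3p 10.1% in Eed-/- cells and 10.5% in Ezh2-/- cells, and CUCAAAC of miR-290a-5p 8.34% in Eed-/- cells and 7.10% in Ezh2-/- cells. GUGCAAA, shared by miR-19a-3p and miR-19b-3p, took 8.18% in Eed-/- cells and 11.5% in Ezh2-/- cells. Its sum was 0.713-fold, although miR-19a-3p alone was 7.43-fold higher. AAAGUGC of miR-17-5p and miR-93-5p was 0.800-fold, although miR-93-5p alone was 36.4-fold higher. Among seeds with 100 CPM or more, ranked by the log2 ratio of CPM + 1, the highest were AGGGAUU of miR-541-5p (1919-fold), CUCAAAA of miR-294-5p (398-fold), ACAUAGA of miR-376c-3p (265-fold), CCAGGAG of miR-665-3p (198-fold) and UCAUAGA of miR-376b-3p (195-fold), with folds given without pseudocount. By fold alone, rarer seeds such as CUCCAUU of miR-136-5p (271-fold) stood above the last 3. The lowest by the same rank were those of miR-142-5p, miR-142-3p, miR-378a-5p, UGACCUA of miR-192-5p and AAGUGCA of miR-291b-3p.

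Higher calls were not spread evenly over base composition or the genome. Outside the Gtl2-Rian-Mirg cluster, counting each name once, 46.3% of names under 35% GC were higher in Eed-/- cells, 29.8% of those from 35 to 45%, 24.9% from 45 to 55% and 19.2% over 55%. By chromosome, chromosome 2 had the most, with 115 of 193 loci higher, of which the Sfmbt2 cluster gave most, since 13 of the 61 other loci were higher. On chromosome 12, apart from the plus-strand loci of the Gtl2-Rian-Mirg cluster, 7 of 28 loci were higher and 0 lower. Over all chromosomes it was 304 of the 993 loci not in the cluster. The 28 include minus-strand loci within the cluster's span, and miR-299b-5p and miR-299b-3p are among the 7. Base composition, copy number and genomic clusters overlap, and their parts were not separated.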

How the data were processed

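Small RNA of 18 to 40 nt from mouse ES cells was sequenced on a SOLiD instrument, per the labels' protocols. Adapters and alignment involved cutadapt and Bowtie with build mm9, per the submitters' processing notes. Versions, and the handling of mismatches and of multiple matches, were not found in the sources used here. Each deposited table gives the read count per mature microRNA locus of miRBase release 20 and the same value as RPM, scaled to 1000000 reads, per the file headers. The RPM values imply denominators of 267248746 reads for Eed-/- and 243895676 for Ezh2-/-, of which microRNAs were 15.8% and 13.2%. Columns were assigned by their names. The Eed-/- column name puts an H before EED, a prefix the sources do not explain, and the wild-type column names the parental line and no mutant gene.

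Counts were scaled to each column's total over loci, with TMM factors from edgeR 4.0.16 beside it (1.18 for Eed-/-, 0.850 for Ezh2-/-), and median-ratio factors from DESeq2 1.42.0, RPM denominators, other filters, other pseudocounts, sums per name or hairpin, thinning and near-identical relatives as alternatives. Log2 ratios used CPM + 1, which understates differences of low loci, and a locus was called at 2-fold. Folds have exact conditional binomial intervals and no pseudocount. Names at several loci, 77 of them, repeat their counts in the totals. The microRNAs named were those with the 15 highest and the 15 lowest ratios at 50 or more counts, the 10 most abundant names, the 4 most abundant of each group or stretch, the extremes of the Gtl2-Rian-Mirg cluster, and the 5 leading arm differences and seeds in each direction. Others are marked where they appear. Members, groups and lists were chosen with earlier results of these data known. The arm comparison without pseudocount and the pairs that differ by 1 base were added after seeing the values. The ratio procedure was tested on simulated counts. RefSeq held 1603 of the names, 1592 with the same sequence. Genomic coordinates are mm9, and no exon or intron annotation was used. Chromatin and messenger RNA measurements were not analysed here. Python 3.11.15 was used.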

Additional observations from a re-analysis of the deposited data

How the results depend on the processing

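No paired analysis was possible because each genotype had 1 column and the columns carry no replicate number. No group or named microRNA past 2-fold reversed its direction under any alternative run. The main counts were 390 loci higher and 50 lower in Eed-/- than in Ezh2-/- cells. Lower loci moved most: 111 with TMM factors, 133 with median-ratio factors, 26 with RPM denominators, 91 with a pseudocount of 0.1, 33 with one of 10, and 25 when arms were summed per hairpin. Higher loci moved past 1.5 times at a pseudocount of 10 (244), per hairpin (197), and with near-identical relatives left out (247, chosen after seeing the data), where fewer features were counted in the last 2. The median log2 ratio of all loci, 0.41, was 0.17 with TMM factors, 0.12 with median-ratio factors, 0.52 with totals that leave out the miR-290 and Gtl2-Rian-Mirg clusters, and 0.59 with RPM denominators. It was 0.10 and 0.99 with minimums of 1 and 100 counts, 0.81 and 0.11 with pseudocounts of 0.1 and 10, 0.33 per name, 0.30 per hairpin, 0.47 after thinning the Eed-/- column and 0.27 without near-identical relatives. The summed fold of the Gtl2-Rian-Mirg cluster, 156, was 113 with TMM factors, 103 with median-ratio factors and 188 with RPM denominators, and its median log2 ratio lay between 1.43 and 5.98. Of the group medians under each alternative, 411 stayed on the same side of 2-fold, 21 came under it, 26 passed it and 24, whose main value was under it, changed sign. Depth limits the Ezh2-/- side of the cluster, where 46 of 98 loci had 3 or fewer counts.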
